A study of Mus musculus with 6 samples.

Results

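The 43 *Hox* rows of the count table, out of 40205 rows in all, cover the 4 mouse *Hox* clusters and were picked by gene name alone. They comprise 39 protein-coding genes (11 *Hoxa*, 10 *Hoxb*, 9 *Hoxc* and 9 *Hoxd*) and 4 antisense transcripts that carry a *Hox* name (*Hoxa11os*, *Hoxb3os*, *Hoxb5os* and *Hoxd3os1*). RNA sequencing was performed on 4T-1 cells, an established mouse mammary carcinoma line used as a model of triple negative breast cancer (TNBC). Control cells carried the empty MSCV retroviral vector, and Y641-F cells carried EZH2-Y641-F, a catalytically hyperactive form of the H3K27 methyltransferase EZH2. There were 3 libraries in each group, from separate batches of stable cells. The Methods text is not uniform on selection, since it gives puromycin for all lines in one place and hygromycin for Y641-F cells in another. If the drugs differed, drug and construct cannot be told apart. Separate transductions are not stated for the batches, and p-values therefore measure the spread between batches of cells. No antibody or chromatin data were analysed here, only RNA.

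*Hox* genes encode homeodomain transcription factors that give cells their position along the body axis. They sit in 4 clusters, and genes at the same paralog position in different clusters descend from a common ancestor gene. In the embryo, low-numbered genes of a cluster tend to be active earlier and nearer the head than high-numbered ones. The *Hox* clusters are classical targets of Polycomb repressive complex 2 (PRC2), whose catalytic subunit EZH2 places the repressive H3K27me3 mark, while MLL-family methyltransferases act on the active side. In the mammary gland, several *Hox* genes are known from development and from altered expression in carcinoma.

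Transcripts from the *Hoxa* cluster made up most *Hox* reads in 4T-1 cells, and 4 *Hox* genes fell in Y641-F cells. *Hoxa2*, *Hoxa3*, *Hoxa5* and *Hoxd3* were lower at an adjusted p under 0.05 (edgeR quasi-likelihood test, adjusted by Benjamini-Hochberg over all genes tested), and 0 *Hox* rows were higher, as with DESeq2 and limma-voom. *Hoxb* and *Hoxc* genes were at or near 0 counts in both groups. At an unadjusted p under 0.05, 6 rows were lower and 1 was higher, where 20.8% and 19.9% of all genes were. Of the 43 rows, 19 passed the filter on low counts, so the 4 rows that fell are 21.1% of those tested. Over all 21043 genes tested, 16% fell and 15.6% rose. Of all genes whose mean count reached 10, 18.9% fell, and of the 12 *Hox* rows that reached it the same 4 fell. The share of *Hox* rows that fell is thus close to that of all genes among rows tested. Among rows with a mean count of at least 10 it is higher, on few *Hox* rows and with no test of the shares. The median log2 fold change was -0.47 over the 19 *Hox* rows tested and -0.01 over all genes tested. Below 0 were 16 of the 19 *Hox* rows and 10713 of all 21043 genes tested. The rows that passed the filter are those with reads and do not stand for all 43. *Hoxb5os*, counted among the rows below 0, reached 0.1 CPM only in Control libraries, so the filter favoured its direction. Less RNA per cell and fewer cells with the RNA cannot be told apart in such bulk samples.

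The promoters of the 4 genes that fell are shown with those of 3 neighbours that did not pass the test, because PRC2 binding in mammals is known to favour stretches rich in CpG, the dinucleotide of C followed by G. Each sequence runs from 250 bases before to 50 bases after a RefSeq transcript start (from the GRCm38.p6 table), read 5′ to 3′ on the strand of the gene, with every CpG in capitals. Their places in GRCm39 were found by exact match. *Hoxa2* is at chr6:52141762-52142061, *Hoxa3* at chr6:52189998-52190297 and *Hoxa5* at chr6:52181518-52181817, all on the minus strand. *Hoxd3* is at chr2:74542087-74542386 on the plus strand. The neighbours are *Hoxa6* at chr6:52185603-52185902 and *Hoxa7* at chr6:52195504-52195803 on the minus strand, and *Hoxd4* at chr2:74552072-74552371 on the plus strand.
Hoxa2: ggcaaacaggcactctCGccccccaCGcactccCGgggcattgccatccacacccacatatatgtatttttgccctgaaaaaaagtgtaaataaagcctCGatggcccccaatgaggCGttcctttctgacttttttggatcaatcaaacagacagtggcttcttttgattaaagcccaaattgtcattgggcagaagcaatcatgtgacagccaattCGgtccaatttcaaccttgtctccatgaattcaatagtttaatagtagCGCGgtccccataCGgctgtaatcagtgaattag
Hoxa3: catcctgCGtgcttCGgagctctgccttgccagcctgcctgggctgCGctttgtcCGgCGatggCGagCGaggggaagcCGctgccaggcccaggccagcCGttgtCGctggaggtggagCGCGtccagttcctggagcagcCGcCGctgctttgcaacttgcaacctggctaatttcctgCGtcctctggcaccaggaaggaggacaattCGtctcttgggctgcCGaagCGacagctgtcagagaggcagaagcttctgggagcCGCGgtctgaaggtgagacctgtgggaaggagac
Hoxa5: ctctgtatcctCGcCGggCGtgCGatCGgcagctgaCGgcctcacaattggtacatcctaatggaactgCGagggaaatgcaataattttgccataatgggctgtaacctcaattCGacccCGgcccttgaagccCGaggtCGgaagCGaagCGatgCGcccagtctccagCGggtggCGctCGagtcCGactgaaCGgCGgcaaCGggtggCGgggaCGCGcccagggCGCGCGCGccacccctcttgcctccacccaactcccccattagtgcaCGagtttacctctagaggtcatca
Hoxd3: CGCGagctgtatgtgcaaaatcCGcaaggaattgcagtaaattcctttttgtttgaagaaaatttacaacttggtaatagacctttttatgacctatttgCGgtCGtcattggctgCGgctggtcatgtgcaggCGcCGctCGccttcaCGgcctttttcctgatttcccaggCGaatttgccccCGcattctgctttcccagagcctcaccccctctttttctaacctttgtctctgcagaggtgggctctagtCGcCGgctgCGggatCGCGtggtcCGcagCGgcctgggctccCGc
Hoxa6: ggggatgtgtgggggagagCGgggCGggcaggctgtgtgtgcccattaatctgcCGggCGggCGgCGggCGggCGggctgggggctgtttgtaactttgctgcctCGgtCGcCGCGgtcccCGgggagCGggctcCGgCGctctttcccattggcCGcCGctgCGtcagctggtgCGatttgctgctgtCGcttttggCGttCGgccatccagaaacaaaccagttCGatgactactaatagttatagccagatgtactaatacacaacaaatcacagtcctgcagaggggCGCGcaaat
Hoxa7: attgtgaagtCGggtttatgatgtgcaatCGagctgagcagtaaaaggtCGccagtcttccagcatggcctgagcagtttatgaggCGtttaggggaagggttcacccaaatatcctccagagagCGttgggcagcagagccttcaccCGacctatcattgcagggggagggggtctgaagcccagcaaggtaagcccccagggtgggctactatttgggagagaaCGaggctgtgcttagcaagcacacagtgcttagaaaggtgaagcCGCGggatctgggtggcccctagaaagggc
Hoxd4: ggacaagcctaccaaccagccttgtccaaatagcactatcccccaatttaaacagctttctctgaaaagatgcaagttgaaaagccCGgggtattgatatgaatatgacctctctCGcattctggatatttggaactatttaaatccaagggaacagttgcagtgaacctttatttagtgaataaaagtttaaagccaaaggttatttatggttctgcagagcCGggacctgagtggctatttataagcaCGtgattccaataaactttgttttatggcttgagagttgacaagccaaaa

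The *Hoxa5* window held 29 CpG, those of *Hoxa3* and *Hoxd3* held 20 each and that of *Hoxa2* held 9. Among the neighbours that did not pass the test, *Hoxa6* had 26 CpG, *Hoxa7* had 9 and *Hoxd4* had 4. In GENCODE, *Hoxd4* also has a start at position 74542273, inside the *Hoxd3* window, so the windows of this pair do not separate the genes. The CpG ranges of the genes that fell and of their neighbours overlap. Over all *Hox* promoters with a mean count of at least 10, the median was 20 CpG in the 4 genes that fell and 10.5 in the 6 promoters of genes that did not pass, with no test. The table held 27 promoters for 25 of the 43 *Hox* rows, with a median of 15 CpG and a range of 4 to 45. The median was 7 over all 32851 mouse promoters of the table. In protein-coding *Hox* genes whose mean count reached 10 the median was 16 (10 promoters), and in those below it 14.5 (14 promoters). The medians of protein-coding *Hox* genes with many and with few reads were thus close. Promoters of antisense rows were left out of these splits.

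Short motifs were searched on both strands of the same windows. The letters CCAAT were in 15 of the 27 *Hox* promoters (55.6%) and in 37.4% of all promoters. TGATNNAT, the core bound by Hox proteins with Pbx, was in 4 (14.8%, against 8.85% of all), and *Hoxa2* was the only gene of those that fell to hold it. AGGTCA, the core motif of retinoic acid receptors, was in 7 (25.9%, against 16.3%), including *Hoxa5*, *Hoxd3* and *Hoxd4*. The GC box GGGCGG, which itself holds a CpG, was in 10 (37.0%, against 35.7%), and TATAAA was in 5 (18.5%, against 13.6%). A match describes the letters of a window and is not a bound site.

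**Figure D1:**
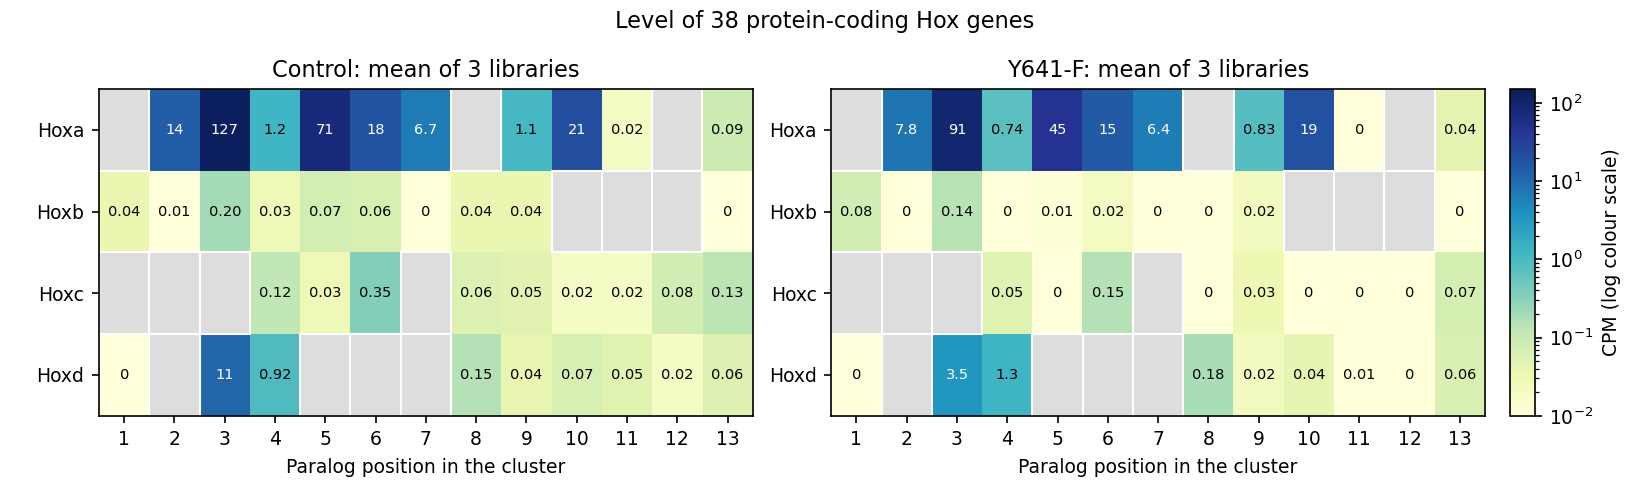
Mean level of 38 protein-coding *Hox* genes, in CPM (library-scaled counts, with TMM factors) over 3 libraries, in Control (left) and Y641-F cells (right). Rows are clusters and columns are paralog positions, grey cells mark positions with no gene or none shown, the colour scale is logarithmic, and levels at or below 0.01 share the palest colour. Most reads of the genes shown were in *Hoxa3* and *Hoxa5*, with fewer in *Hoxa2*, *Hoxa6*, *Hoxa7*, *Hoxa10* and *Hoxd3*. *Hoxa4*, *Hoxa9* and *Hoxd4* had group means of 0.744 to 1.28 CPM.

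By cluster, the 11 *Hoxa* genes summed to 265 ± 1.49 CPM (library-scaled counts) in Control cells and 191 ± 2.32 CPM in Y641-F cells (SD, n = 3 libraries). The 9 *Hoxd* genes summed to 12.5 ± 2.30 CPM and 5.09 ± 2.66 CPM (SD, n = 3). The *Hoxd* sum was 3.60, 8.15 and 3.51 CPM in the Y641-F libraries, so Y641-F replicate 2 stood apart from the others, and without it the mean was 3.55 CPM. The 9 *Hoxc* genes summed to 0.855 ± 0.108 and 0.312 ± 0.184 CPM, and the 10 *Hoxb* genes to 0.486 ± 0.391 and 0.274 ± 0.0699 CPM (SD, n = 3). One library decided the *Hoxb* sum in Control cells, which was 0.271 CPM without Control replicate 2. The groups did not overlap in *Hoxa*, *Hoxc* or *Hoxd* sums, and they overlapped in *Hoxb*. No test was run on the sums. All *Hox* rows together took 0.0277% to 0.0302% of the counts in Control libraries and 0.0185% to 0.0204% in Y641-F libraries.

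The *Hoxa* cluster lies on the minus strand of chromosome 6 in GRCm39. Within it, 9 of 11 genes were tested, 3 fell and 0 rose (against 16% and 15.6% of all genes tested). All 9 had a log2 fold change below 0, as had 10713 of all 21043 genes tested. In 5 of the 9, no Y641-F library reached the lowest Control library in CPM. Such a gap was seen in 23.3% of all genes tested. *Hoxa2*, *Hoxa3*, *Hoxa4* and *Hoxa5* are among the genes with this gap.

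*Hoxa5*, which takes part in lung and mammary development and is often reduced in human breast carcinoma, was counted 2458, 2595 and 2414 times in Control and 1409, 1418 and 1601 times in Y641-F libraries. In CPM it was 68.5, 72.0 and 73.1 in Control and 45.3, 43.3 and 46.8 in Y641-F cells, with no overlap. The mean fell 1.58-fold, from 71.2 ± 2.41 to 45.1 ± 1.75 CPM (SD, n = 3). Its log2 fold change was -0.66 (SE, the standard error, 0.0812, adjusted p = 8.8e-05, edgeR). No exon of another gene in GENCODE overlaps *Hoxa5* (positions 52178734 to 52181567).

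*Hoxa3*, which patterns the pharyngeal arches and the thymus and parathyroid, had the most counts of any *Hox* row. It had 4741, 4561 and 4053 counts in Control and 2730, 3075 and 3151 in Y641-F libraries. These were 132, 127 and 123 CPM in Control and 87.8, 93.9 and 92.0 CPM in Y641-F cells. Every Y641-F library was thus below every Control library. The mean fell 1.39-fold, with a log2 fold change of -0.48 (SE 0.0817, adjusted p = 8.5e-04, edgeR). *Hoxa3* spans positions 52146041 to 52190316 and shares exon positions with *Hoxaas2*, *Hoxaas3* and other transcripts of the opposite strand.

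*Hoxa2*, a regulator of hindbrain and second pharyngeal arch identity, had the largest fold change of the *Hoxa* genes that fell. Its counts were 468, 493 and 509 in Control and 263, 242 and 255 in Y641-F libraries. In CPM these were 13.0, 13.7 and 15.4 against 8.46, 7.39 and 7.45, again without overlap. The mean fell 1.81-fold, with a log2 fold change of -0.85 (SE 0.124, adjusted p = 2.8e-04, edgeR). *Hoxa2* spans positions 52138599 to 52141811 and overlaps exons of *Hotairm1* on the other strand.

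*Hoxa4* was lower in each Y641-F library but did not pass the adjusted test. This axial patterning gene had 50, 31 and 48 counts in Control and 26, 18 and 29 in Y641-F libraries. For it the log2 fold change was -0.73 (SE 0.355, adjusted p = 0.148, edgeR), a size between those of *Hoxa5* and *Hoxa2* at a far lower count.

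In the central and posterior *Hoxa* genes the groups overlapped. *Hoxa6*, next to *Hoxa5*, had 688, 669 and 522 counts in Control and 450, 544 and 493 in Y641-F libraries (log2 fold change -0.24, 95% interval -0.49 to 0.01, adjusted p = 0.146 from edgeR). *Hoxa7* had 225, 269 and 206 counts against 242, 214 and 169 (log2 fold change -0.05, interval -0.44 to 0.33, adjusted p = 0.854 from edgeR). Both are axial patterning genes, and *Hoxa7* is also known from leukaemia. *Hoxa9*, a leukaemia oncogene that maintains haematopoietic progenitors, was low, with 36, 47 and 32 counts against 26, 43 and 12 (log2 fold change -0.39, interval -1.34 to 0.56, adjusted p = 0.545 from edgeR). *Hoxa10*, which is needed for uterine receptivity, had 664, 723 and 768 counts against 582, 598 and 706 (log2 fold change -0.10, interval -0.34 to 0.14, adjusted p = 0.542 from edgeR). The intervals of *Hoxa2* (-1.13 to -0.58) and *Hoxa5* (-0.83 to -0.48) lie wholly below that of *Hoxa10*, whereas that of *Hoxa3* (-0.66 to -0.30) overlaps it. Those of *Hoxa6* and *Hoxa9* include the change measured for *Hoxa3*. No test compared the changes of different genes. At the end of the cluster, *Hoxa11* had 0 to 2 counts per library and *Hoxa13* 0 to 6, and neither was tested.

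**Figure D2:**
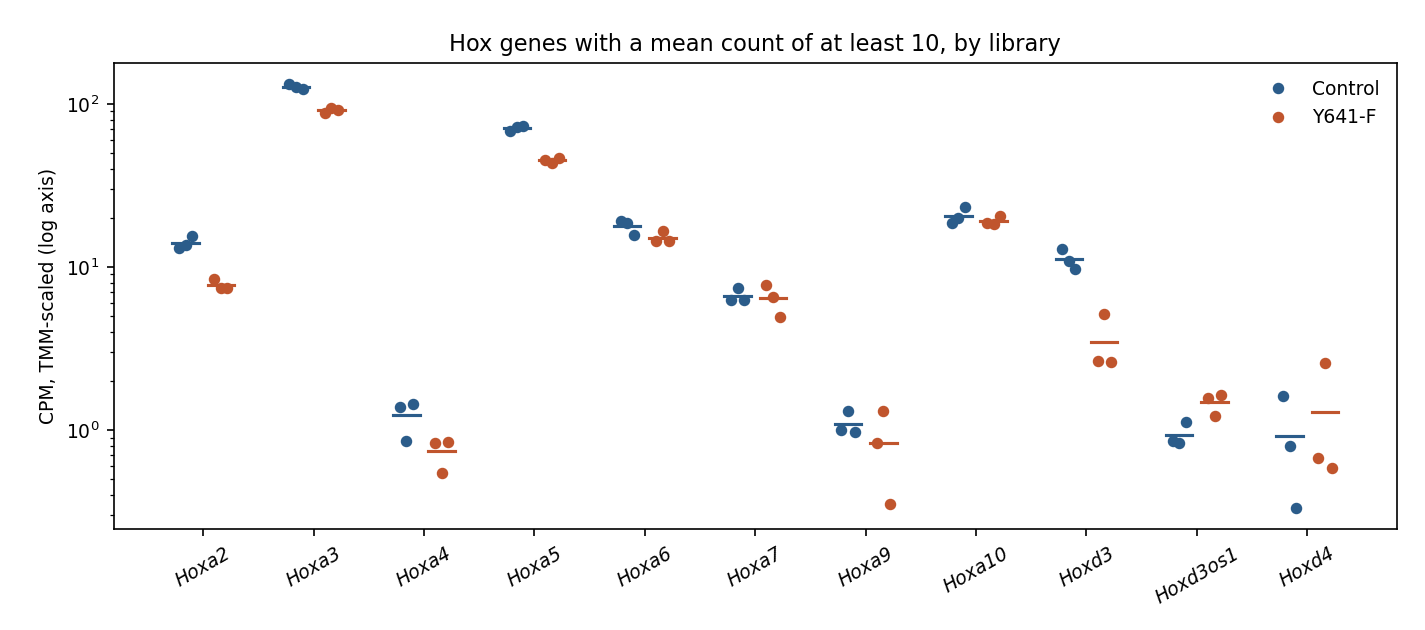
Level of 11 *Hox* rows whose mean count reached 10, in each library, as TMM-scaled CPM on a log axis, with Control in blue and Y641-F in orange and the mean of 3 libraries as a bar. The groups are apart in *Hoxa2*, *Hoxa3*, *Hoxa4*, *Hoxa5* and *Hoxd3*, where Y641-F is lower, and in *Hoxd3os1*, where it is higher, and Y641-F replicate 2 is the highest Y641-F point in *Hoxd3* (5.16 CPM) and *Hoxd4* (2.60 CPM).

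*Hoxd3* had the largest change of any *Hox* row that passed the test. It is the *Hoxd* paralog of *Hoxa3* and acts in the patterning of the neck vertebrae. Its counts were 464, 390 and 321 in Control libraries and 83, 169 and 90 in Y641-F libraries. In CPM it was 12.9, 10.8 and 9.72 in Control and 2.67, 5.16 and 2.63 in Y641-F cells. The mean fell 3.20-fold, from 11.2 ± 1.63 to 3.49 ± 1.45 CPM (SD, n = 3), with a log2 fold change of -1.68 (SE 0.238, adjusted p = 2.4e-04, edgeR). Y641-F replicate 2 was the highest of its group and still below every Control library. Across the 13 alternatives tried, those that left out a library included, the log2 fold change of *Hoxd3* lay between -2.07 and -1.51 and stayed past the test.

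The neighbours of *Hoxd3* did not follow it past the test. *Hoxd4*, also a regulator of vertebral identity, had 58, 29 and 11 counts in Control and 21, 85 and 20 in Y641-F libraries (log2 fold change 0.48, SE 0.614, adjusted p = 0.608 from edgeR). Without Y641-F replicate 2 its log2 fold change turned to -0.55, so that library decided the direction. *Hoxd8*, a trunk patterning gene, had 6, 6 and 4 counts against 2, 12 and 4, and its log2 fold change of 0.26 (adjusted p = 0.835 from edgeR) turned to -0.71 without the same library. *Hoxd9*, *Hoxd10*, *Hoxd11*, *Hoxd12* and *Hoxd13*, which pattern limbs and the posterior body, had 0 to 4 counts in each library, and *Hoxd1* had none. In GENCODE, exons of *Hoxd3* (chromosome 2, positions 74542271 to 74578786) and *Hoxd4* (74542273 to 74559523) overlap on the same strand, so reads of the shared positions cannot be assigned to either gene.

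*Hoxd3os1*, an antisense transcript that overlaps the start of *Hoxd3*, was higher in each Y641-F library, with 31, 30 and 37 counts in Control and 49, 40 and 56 in Y641-F cells. Its exons also overlap those of *Hoxd4* and *Hoxd8*. Its log2 fold change was 0.65 (SE 0.299, adjusted p = 0.122, edgeR), and it is the only *Hox* row to be higher at an unadjusted p under 0.05. A gap between the groups in this direction was seen in 21.2% of all genes tested. Whether the counting used strand is not stated in the sources read. If strand was not used, reads from exons that *Hoxd3os1* shares with *Hoxd3*, *Hoxd4* or *Hoxd8* cannot be told apart.

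*Hoxb* and *Hoxc* gave few reads. Of 10 *Hoxb* genes only *Hoxb3*, a hindbrain gene, passed the filter, with 2, 15 and 4 counts in Control and 5, 3 and 6 in Y641-F libraries (log2 fold change -0.47, adjusted p = 0.713 from edgeR). *Hoxb1*, *Hoxb2*, *Hoxb4*, *Hoxb5*, *Hoxb6*, *Hoxb8* and *Hoxb9* had 0 to 6 counts in each library, and *Hoxb7* and *Hoxb13* had none. *Hoxc6*, a thoracic patterning gene known from mammary tissue, was the most abundant row of its cluster by count, with 11, 13 and 13 counts against 6, 5 and 4. Its groups did not overlap, but its log2 fold change of -1.18 (interval -2.43 to 0.06) had an adjusted p of 0.142 from edgeR. *Hoxc4* had 4, 7 and 2 counts against 5, 0 and 0 (log2 fold change -1.19, adjusted p = 0.483 from edgeR), and *Hoxc13*, a hair and nail gene, had 7, 5 and 2 against 2, 5 and 0 (log2 fold change -0.85, adjusted p = 0.562 from edgeR). The remaining genes, *Hoxc5*, *Hoxc8*, *Hoxc9*, *Hoxc10*, *Hoxc11* and *Hoxc12*, had 0 to 6 counts in each library. With totals of 32509268 to 36429035 counts, 3 counts correspond to 0.0833 to 0.0965 CPM, so a change in genes at or below that level was not detectable at this depth. Such floors cover counting error only.

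**Figure D3:**
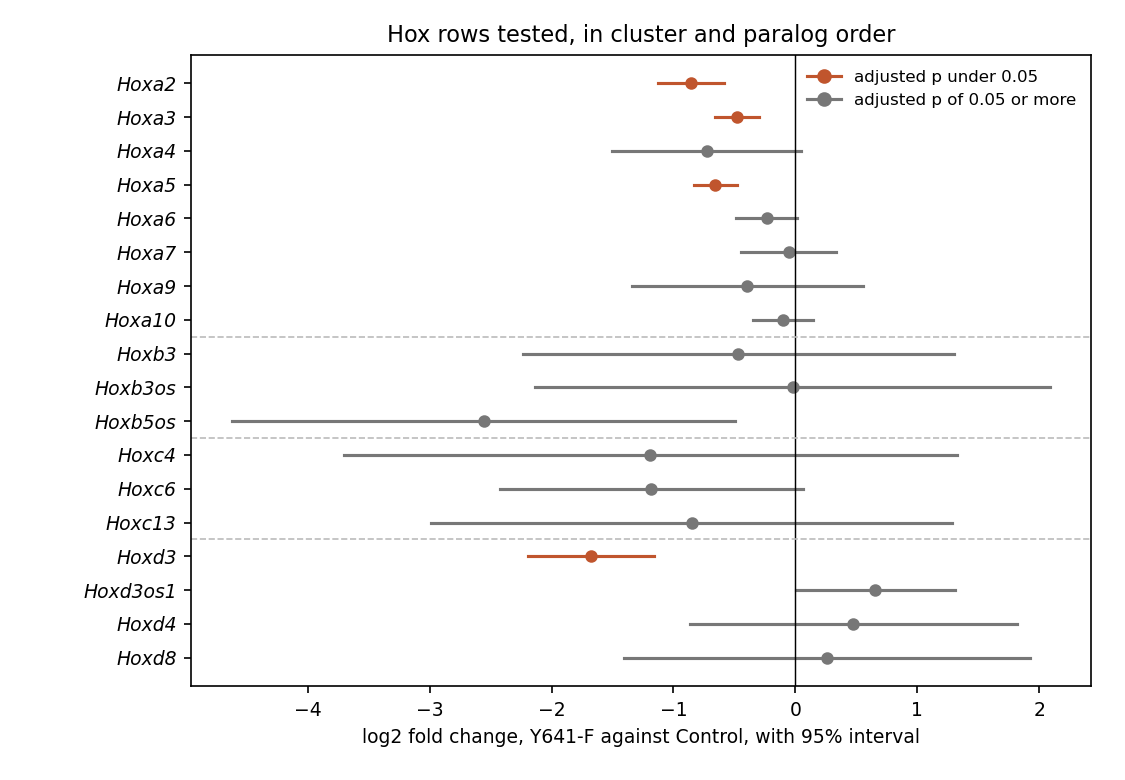
Log2 fold change of Y641-F against Control (x axis) with its 95% interval from edgeR for 18 of the 19 *Hox* rows tested, in order of cluster and paralog position, with dashed lines between clusters. Orange rows passed the adjusted test. *Hoxa2*, *Hoxa3*, *Hoxa5* and *Hoxd3* are the 4 that did, and the widest intervals belong to rows with a few counts.

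The other antisense *Hox* transcripts were rare. *Hoxb5os* had 8, 9 and 4 counts in Control and 1, 2 and 0 in Y641-F libraries, with a log2 fold change of -2.56 (SE 0.946, adjusted p = 0.0584, edgeR). It passed the filter on low counts only through the Control libraries, which favoured a lower value in Y641-F cells. Of the alternatives tried it passed the test only without Y641-F replicate 2 (log2 fold change -3.41, adjusted p = 0.0364 from edgeR). *Hoxb3os* had 0, 9 and 3 counts against 4, 3 and 4, with a log2 fold change of -0.02 (adjusted p = 0.991 from edgeR) whose sign changed with the processing. *Hoxa11os* had 2, 4 and 4 counts against 0, 0 and 2 and was not tested.

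Levels of different genes can be compared only per length. Per kilobase of all GENCODE exons, *Hoxa5* was highest in Control cells at 37.9 ± 1.28 CPM, followed by *Hoxa6* at 20.4 ± 2.05 and *Hoxa3* at 18.5 ± 0.685 (SD, n = 3). The latter pair differed by less than the spread of *Hoxa6*. *Hoxa10* at 6.24 ± 0.733 and *Hoxa2* at 5.46 ± 0.477 CPM per kilobase came next, with overlapping libraries. *Hoxa7* was at 2.31 ± 0.243. *Hoxd3* followed at 1.63 ± 0.238 and *Hoxa4* at 0.775 ± 0.205. *Hoxd4* (0.309 ± 0.219), *Hoxd3os1* (0.219 ± 0.0368) and *Hoxa9* (0.196 ± 0.0331) were lowest of the rows compared and not apart from each other. In Y641-F cells *Hoxa5* was again first, at 24.0 CPM per kilobase, and *Hoxd3* was at 0.510. This order depends on the length used. With the length of the canonical transcript, an alternative chosen after seeing the data, *Hoxa3* came first at 49.0 CPM per kilobase in Control cells. The authors' annotation, and so its gene lengths, was not known here.

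Long non-coding transcripts of the *Hoxa* cluster also had reads, and 2 that overlap *Hoxa3* on the opposite strand fell in Y641-F cells. *Hoxaas3*, which runs antisense past *Hoxa3* and *Hoxa7*, had 3565, 3533 and 3186 counts in Control and 2070, 2202 and 2349 in Y641-F libraries. It fell, with a log2 fold change of -0.54 (SE 0.0777, adjusted p = 2.7e-04, edgeR). *Hoxaas2*, antisense at *Hoxa3*, had 297, 304 and 275 counts against 130, 223 and 168. It also fell (log2 fold change -0.65, SE 0.177, adjusted p = 0.0140 from edgeR), but not without Y641-F replicate 1 (adjusted p = 0.0569) or replicate 3 (0.0543). *5730596B20Rik*, which also overlaps *Hoxa3* on the opposite strand, did not pass the test (log2 fold change -0.33, adjusted p = 0.507 from edgeR). *Hotairm1*, which overlaps *Hoxa2* on the opposite strand and is known from human myeloid cells, had 738, 544 and 522 counts against 460, 848 and 544 (log2 fold change 0.14, adjusted p = 0.647 from edgeR). If strand was not used in counting, reads from exons that these transcripts share with *Hoxa* genes cannot be told apart. Of 18 non-coding transcripts listed for the clusters, 7 were tested, 2 fell and 0 rose (against 16% and 15.6% of all genes tested), with a median log2 fold change of -0.04. *Hotair*, *Hottip*, *Haglr*, *Mir10a*, *Mir10b*, *Mir196a-1* and *Mir615* had 0 counts in all libraries. The miRNA rows would count precursor reads in an mRNA library, not the mature miRNAs.

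Hox proteins bind DNA with cofactors of the TALE homeodomain family. Of the 9 listed cofactor genes, all tested, 3 fell and 0 rose (against 16% and 15.6% of all genes tested), leaving 6 that missed the threshold, with a median log2 fold change of -0.29. *Meis2* had 420, 403 and 368 counts in Control and 187, 171 and 208 in Y641-F libraries (log2 fold change -0.97, SE 0.128, adjusted p = 1.4e-04 from edgeR). *Pbx2*, a partner of Hox proteins of many positions, had 1473, 1406 and 1286 counts against 709, 718 and 671 (log2 fold change -0.89, adjusted p = 2.7e-05 from edgeR). *Meis1*, which acts with *Hoxa9* in leukaemia, had 331, 343 and 316 counts against 219, 181 and 173 (log2 fold change -0.68, adjusted p = 0.00424 from edgeR).

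Retinoic acid receptors and caudal factors are known inputs to the *Hox* clusters in the embryo. The list of these inputs held 16 genes, with *Gdf11* included. Of them 10 were tested, 4 fell and 1 rose (against 16% and 15.6% of all genes tested). This left 5 that missed the threshold, and the median log2 fold change was -0.57. The genes that fell were the receptors *Rara* (log2 fold change -1.03, 53.4 ± 4.38 to 26.1 ± 3.65 CPM), *Rarg* (-0.80, 67.5 ± 1.42 to 38.9 ± 2.97 CPM), *Rxra* (-0.67, 40.8 ± 1.80 to 25.6 ± 3.16 CPM) and *Rxrb* (-0.47, 54.4 ± 0.631 to 39.4 ± 3.14 CPM; SD, n = 3). Their adjusted p-values from edgeR were 3.8e-05, 3.5e-05, 4.0e-04 and 0.00155. *Aldh1a1*, an enzyme of retinoic acid synthesis, rose from 17, 17 and 4 counts to 45, 42 and 52 (log2 fold change 1.97, adjusted p = 0.00522 from edgeR). The caudal genes *Cdx1*, *Cdx2* and *Cdx4* had 0 to 3 counts in each library and were not tested. The part of the cofactors or receptors in the change of any *Hox* gene was not tested.

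**Figure D4:**
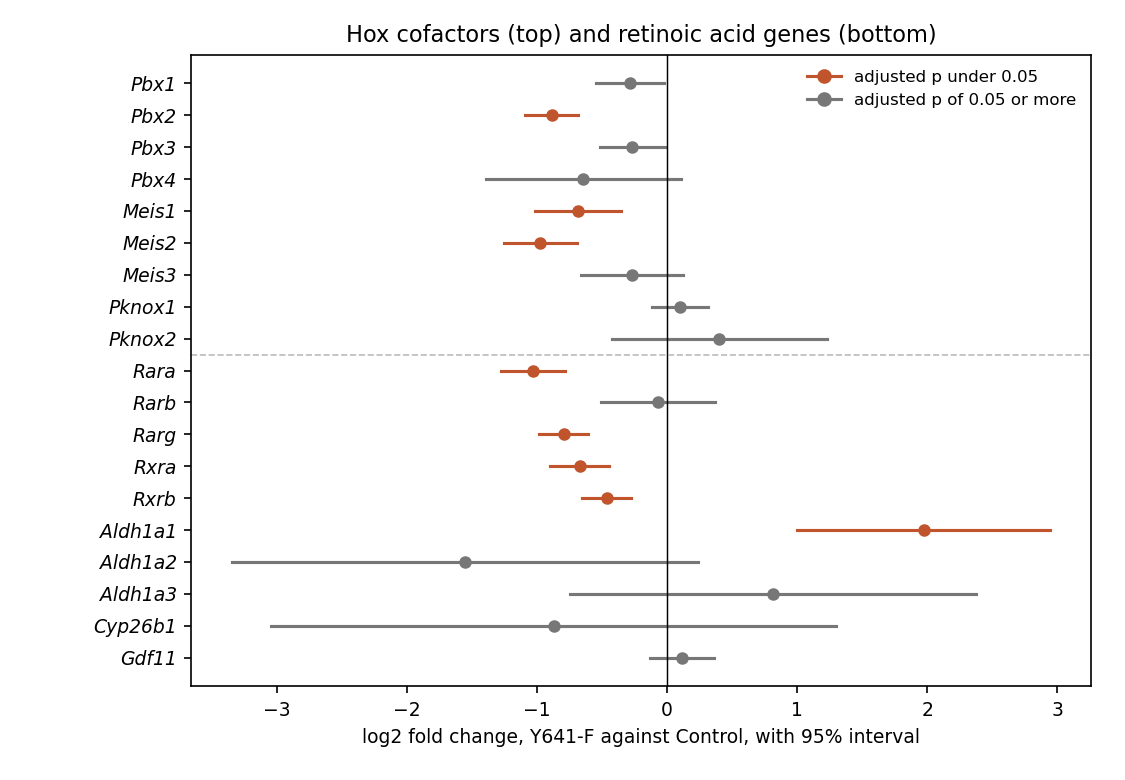
Log2 fold change of Y641-F against Control (x axis) with its 95% interval from edgeR. Above the dashed line are the 9 TALE cofactor genes. Below it are the 10 tested genes listed as caudal and retinoic acid inputs, with *Gdf11* among them and no caudal gene. Orange rows passed the adjusted test. The cofactors *Pbx2*, *Meis1* and *Meis2* and the receptors *Rara*, *Rarg*, *Rxra* and *Rxrb* fell, and *Aldh1a1* rose.

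Markers of the labelled cell type were present. The 6 epithelial markers summed to 2743 to 2828 CPM in Control and 2620 to 3043 CPM in Y641-F libraries. Of these 6, *Krt19* fell (log2 fold change -1.13, adjusted p = 8.3e-06, edgeR), *Cldn7* rose (1.14, adjusted p = 4.6e-06, edgeR) and 4 missed the threshold. The 7 haematopoietic markers, of a lineage that also uses *Hoxa* genes, summed to 12.4 to 15.9 CPM in Control and 6.08 to 7.17 CPM in Y641-F libraries. Their sum was lower in Y641-F cells, as was the *Hoxa* sum, but most of it was *Cd68* (10.4 ± 0.335 to 5.39 ± 0.599 CPM, SD, n = 3). Of these 7, 1 fell (*Cd68*, log2 fold change -0.95, adjusted p = 2.4e-04 from edgeR), 0 rose, 6 missed the threshold and none was at 0. Fibroblast markers summed to 36.0 to 48.3 CPM against 22.1 to 36.6 CPM, with 1 of 4 tested lower (*Col1a1*, log2 fold change -2.08, adjusted p = 0.00116, edgeR) and *Lum* at 0. Most of the fibroblast sum was *Pdgfra* (38.4 ± 6.77 to 28.6 ± 7.27 CPM, SD, n = 3), whose groups overlapped. Endothelial markers summed to 5.03 to 5.97 against 4.79 to 6.11 CPM with 0 of 4 called, and nerve cell markers to 35.6 to 37.3 against 19.0 to 24.7 CPM with 1 of 5 lower (*Map2*, log2 fold change -0.73, adjusted p = 0.00130, edgeR). *Tek* made up most of the endothelial sum and *Map2* most of the nerve cell sum. For comparison with the calls in each marker list, 16% of all genes tested fell and 15.6% rose. The part of other cell types in the *Hox* result was not tested. The *Ezh2* row did not pass the test (log2 fold change 0.06, adjusted p = 0.730 from edgeR). The sources read do not state which species the EZH2 sequence came from, so this row could not check the labels.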

How the data were processed

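RNA was sequenced from 6 libraries of 4T-1 cells on an Illumina NovaSeq, and groups were taken from the labels. The deposited values are raw counts of reads per gene. To make them, the authors used, as the submitters' processing notes list them, featureCounts 2.0.1, the aligner STAR version 2 with GRCm39, the trimmer fastp 0.20.1, and bcl2fastq 2.19.0.316 with MultiQC 1.9 and FastQC 0.11.9. Some versions differ in the reporting summary. The gene annotation, not given in the sources used here, could change which reads a gene receives, and so could the strand setting, which is likewise unknown.

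After a filter that kept 21043 of 40205 genes (0.1 CPM or more in 3 or more libraries), counts were scaled by TMM in edgeR 4.0.16 (R 4.3.3). The quasi-likelihood test compared Y641-F with Control, two-sided, with Benjamini-Hochberg adjustment over all genes kept, and a gene was called at an adjusted p under 0.05. CPM are counts scaled to the TMM-adjusted library size, with factors of 0.940 to 1.067. Within groups the libraries differed by more than sampling noise (chi-square per degree of freedom 10.9 to 29.7). The script was tested on simulated data. Alternatives used limma 3.58.1 and DESeq2 1.42.0, other scalings and filters, the replicate block and each library left out. Positions and exon overlaps are from GENCODE vM39 on GRCm39, read with Python 3.11.15, and figures were drawn with matplotlib 3.10.9.

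*Hox* rows with an adjusted p under 0.05 or a mean count of at least 10 are given in full, and other rows by their counts. Members of each gene list, markers included, with an adjusted p under 0.05 are named, up to 4 by size of change. The *Hox* members and all gene lists were chosen with earlier results of these data known. Values of 1 *Hox* gene are not reported here, though it is part of the counts and sums.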

Additional observations from a re-analysis of the deposited data

How the results depend on the processing

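*Hoxa2*, *Hoxa3*, *Hoxa5* and *Hoxd3* stayed lower and past the test under all 13 alternatives. The count of *Hox* rows that fell was 4 to 5 with a library left out and 4 otherwise, and 0 rose in each. Over all genes, 6651 were called, 4731 to 7328 with a library left out and 6393 to 7273 otherwise. Same-numbered libraries showed no clear shared deviation, with correlations of -0.12, -0.06 and 0.17, where all pairs across the groups ranged from -0.16 to 0.21. With 3 libraries per group this cannot decide whether same-numbered batches were handled together. The replicate block gave 6393 calls with 4 *Hox* rows lower. Without TMM, the *Hoxa* sum was 274.5 CPM in Control and 184.5 CPM in Y641-F cells.

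Signs of log2 fold changes turned only in rows that had not passed the test. *Hoxb3os* turned to 0.80 with limma-voom, 0.29 with the replicate block and 0.10 without Y641-F replicate 2. *Hoxd8* turned to -0.044 with limma-voom. With a library left out, *Hoxd8* ranged from -0.71 (without Y641-F replicate 2) to 0.65, *Hoxd4* from -0.55 (without the same library) to 1.16, *Hoxb3* from -0.91 to 0.68 (without Control replicate 2), *Hoxb3os* from -0.61 to 0.10 and *Hoxa7* from -0.21 to 0.10. *Hoxa7* was above 0 without Control replicate 2 (0.034) or Y641-F replicate 3 (0.10). *Ezh2*, added after seeing the data with the other genes outside the clusters, ranged from -0.022 (without Control replicate 1) to 0.13. *Hoxb5os* passed the test without Y641-F replicate 2 (-3.41). The cause was not tested. Depth limits *Hoxb*, *Hoxc* and posterior *Hoxd* genes, most of which had under 10 counts in each library.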

Other observations

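Among genes known to act on the chromatin of the *Hox* clusters, 2 of 10 on the MLL side fell and 0 rose, where 16% of all genes fell. *Mllt3* (AF9), a subunit of complexes that promote elongation, had 1265, 1379 and 1309 counts in Control and 722, 649 and 913 in Y641-F libraries (log2 fold change -0.70, SE 0.113, adjusted p = 6.1e-04 from edgeR). *Men1*, which encodes the MLL partner menin, had a log2 fold change of -0.24 (adjusted p = 0.0477 from edgeR), a call lost in 9 of 13 alternatives (adjusted p 0.0264 to 0.189). Of the 6 PRC2 core genes, *Ezh1*, the less active homolog of *Ezh2*, fell (log2 fold change -0.62, SE 0.109, adjusted p = 0.00100 from edgeR), 0 rose and 5 did not pass the test. Among all genes tested, 16% fell and 15.6% rose.

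Genes within 500 kb outside the clusters moved in both directions. Of 83 such rows, 51 were tested, 7 fell and 7 rose (against 16% and 15.6% of all genes tested), with a median log2 fold change of 0.05. Beside *Hoxa*, 1 of 3 tested rows fell, namely *Skap2*, an adaptor gene (log2 fold change -0.69, adjusted p = 0.00154 from edgeR). Beside *Hoxc*, 4 of 22 tested rows fell and 3 rose. The autophagy receptor gene *Calcoco1* had 815, 834 and 708 counts in Control and 229, 247 and 269 in Y641-F libraries (log2 fold change -1.56, SE 0.105, adjusted p = 1.06e-06 from edgeR), and *Gtsf1* rose (1.86, adjusted p = 0.00999 from edgeR). Beside *Hoxb*, 2 of 20 tested rows fell and 3 rose. *Phospho1* (log2 fold change -0.83, adjusted p = 2.2e-04 from edgeR) and *Abi3* (-0.70, adjusted p = 0.00105 from edgeR) fell, and *Skap1* (0.49, adjusted p = 0.00797 from edgeR) and *Snx11* (0.43, adjusted p = 0.0122 from edgeR) rose. *Gtsf1*, *Phospho1* and *Abi3* were named after their values were seen. *Snx11* lost its call in 3 of 13 alternatives. Around *Hoxd*, 6 rows were tested, of which 0 fell and 1 rose.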
